A study of Sus scrofa with 12 samples.

Results

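Epithelial identity genes are the genes by which endometrial epithelium is recognised among the other cells of the uterine wall. The list held 9 of them and each was looked up by its symbol in the deposited table of 20674 genes. 8 of the 9 were found: KRT8, KRT18, KRT19, EPCAM, MUC4, ELF3, EHF and FOXA2. KRT7, which the RefSeq annotation lists as a non-coding RNA gene, was not analysed here. The RNA came from 12 endometrium samples of Landrace × Yorkshire sows of the second or the third parity, which were fed from breeding to the end of a 114-day gestation. Sows of the L − N group received a low-fiber (LF) diet with 3.73% crude fiber, and sows of the L + N group the same diet with 0.05% N-carbamylglutamate (NCG), an activator of urea cycle and arginine synthesis. Sows of the H − N and H + N groups received a high-fiber (HF) diet with 7.46% crude fiber, made with soybean bran and beet pulp, without NCG and with 0.05% NCG. There were 3 libraries in each group. Each library is called a sow below, although the labels do not say that each came from a different sow. The question was how the levels of these genes compared between the diets, and how far sows on the same diet differed.

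The endometrium is lined by luminal epithelium, which is continuous with the uterine glands below it. Both are simple epithelia whose cytoskeleton is built of pairs of a type II keratin (KRT8) with a type I keratin (KRT18 or KRT19). EPCAM is an adhesion molecule of the lateral membrane and MUC4 a large membrane mucin of the apical surface. ELF3 and EHF are related ETS transcription factors of epithelial cells. FOXA2 is a forkhead factor that in the adult uterus marks the glands and is required for their development. In pigs the placenta attaches without invading, so that the luminal epithelium persists through gestation.

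KRT8 (gene 100152077) lies on chromosome 5 of Sscrofa11.1 at 18172423 to 18180277 on the minus strand, and KRT18 (gene 100126286) lies 37.4 kb further on, at 18217686 to 18221432 on the plus strand. KRT19 is on chromosome 12 at 21115453 to 21119115, EPCAM on chromosome 3 at 93169800 to 93185221 and MUC4 on chromosome 13 at 134192412 to 134248435. ELF3 is on chromosome 10 at 24237852 to 24242266, EHF on chromosome 2 at 26287244 to 26340222 and FOXA2 on chromosome 17 at 29997397 to 30001704. None of the 8 overlaps another gene of that annotation. Values are exon counts scaled to the TMM-adjusted library total (CPM), and levels of different genes are compared on the deposited FPKM, which is also divided by exon length. Differences are log2 fold changes of the first group named over the second.

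Library totals lay between 14369781 and 19309724 counts, and the lowest count of any of the 8 genes was 92 (FOXA2), so that counting error was small beside the spread between sows. The chi-square per gene between libraries of the same group was 22.8 to 98.6, where 1 is given by counting error alone. The first L − N library (74.7 and 98.6 to its group mates) and the third H − N library (68.0 and 79.7) stood apart, as did the second and the third H + N libraries from each other (80.5), and the results that rest on them are given without them. Summed leukocyte markers (11 genes) were at 1335 to 2160 CPM in L − N and at 573 to 1325 CPM in the other groups, and smooth muscle markers (8 genes) at 1767 to 5604 against 939 to 1728 CPM. Blood genes (5 in the table) reached 515 and 754 CPM in L − N libraries and 213 and 293 CPM in H + N libraries. The leukocyte and smooth muscle sums were thus higher in every L − N library than in any other library, and their part in the comparisons with L − N was not tested. Of 16 trophoblast markers 14 were in the table and 5 passed the filter, with a sum of 108 to 237 CPM. In this sum GATA2 alone was at 81.0 to 204 CPM. CDX2, CYP19A1, CYP19A2, PPAG3 and PAG6 were at 0 counts in every library.

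Read per exon length, the 8 genes covered a wide range of levels. KRT8 had a mean of 197 FPKM over the 12 libraries and EPCAM 189 FPKM, above 98.4% and 98.3% of the genes tested. They were not separated, as KRT8 was the higher one in 7 of 12 libraries. KRT19 followed at 83.2 FPKM and KRT18 at 57.2 FPKM, in this order in 12 of 12 libraries. The transcription factors were lower, with EHF at 34.5 FPKM and ELF3 at 19.9 FPKM, and EHF exceeded ELF3 in 11 of 12 libraries. MUC4 at 9.82 FPKM and FOXA2 at 9.04 FPKM closed the order. Their means hide an uneven pattern, as MUC4 was above FOXA2 in 3 of 12 libraries. Other keratins gave a contrast: of 14 listed, 11 were in the table and 3 passed the filter on low counts, and KRT1, KRT78 and KRT79 were at 0 in every library. KRT10, the most abundant of them, had group means of 13.6 to 19.9 CPM.

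KRT8 was the most abundant of the 3 simple-epithelial keratins. In L − N it was at 266, 374 and 196 CPM and in L + N at 341, 352 and 405 CPM. In H − N it was at 444, 348 and 439 CPM and in H + N at 306, 266 and 284 CPM. The L − N sows were spread over most of the whole range, while every H + N sow was below every H − N and every L + N sow. KRT18, its filament partner, was at 59.9, 85.3 and 50.3 CPM in L − N, 84.3, 76.3 and 82.5 CPM in L + N, 101, 74.7 and 138 CPM in H − N, and 76.5, 71.8 and 87.2 CPM in H + N. All groups overlapped with H − N for this gene, mainly through the second H − N sow. KRT19, the small keratin without a tail domain, was at 112, 149 and 96.3 CPM in L − N, 144, 139 and 176 CPM in L + N, 160, 119 and 162 CPM in H − N, and 106, 98.4 and 116 CPM in H + N. As with KRT8, the H + N sows were below all sows of the L + N and H − N groups and within the range of L − N.

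EPCAM was at 335, 265 and 187 CPM in L − N, 236, 269 and 207 CPM in L + N, 304, 279 and 374 CPM in H − N, and 202, 257 and 189 CPM in H + N. The 3 H − N sows were above the 3 H + N sows, and L − N overlapped with all groups. MUC4 was at 36.2, 224 and 48.0 CPM in L − N, 68.5, 184 and 52.9 CPM in L + N, 54.2, 23.3 and 265 CPM in H − N, and 35.7, 12.3 and 40.0 CPM in H + N. In each of the first 3 groups a single sow was at 184 CPM or more, and the remaining 9 sows were at 68.5 CPM or less, so that the mean of 29.3 ± 14.9 CPM (SD, n = 3) in H + N is the mean of a group without such a sow. The counts of MUC4 ranged from 226 to 3844, far above counting error.

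ELF3 was at 48.5, 63.5 and 28.4 CPM in L − N, 43.3, 55.7 and 40.7 CPM in L + N, 37.0, 23.5 and 77.5 CPM in H − N, and 30.1, 29.0 and 19.0 CPM in H + N. Its 3 highest libraries were the same 3 libraries as those of MUC4. EHF was at 302, 225 and 169 CPM in L − N, 280, 320 and 280 CPM in L + N, 368, 290 and 704 CPM in H − N, and 238, 248 and 224 CPM in H + N. The H + N sows lay close together and below the sows of L + N and H − N, and the third H − N sow was far above all others. FOXA2 was at 43.0, 5.77 and 15.8 CPM in L − N, 24.3, 22.8 and 18.1 CPM in L + N, 24.8, 34.2 and 26.5 CPM in H − N, and 15.1, 35.7 and 15.3 CPM in H + N. Both the highest and the lowest FOXA2 of the series were in L − N sows, 7.45-fold apart.

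**Figure D1:**
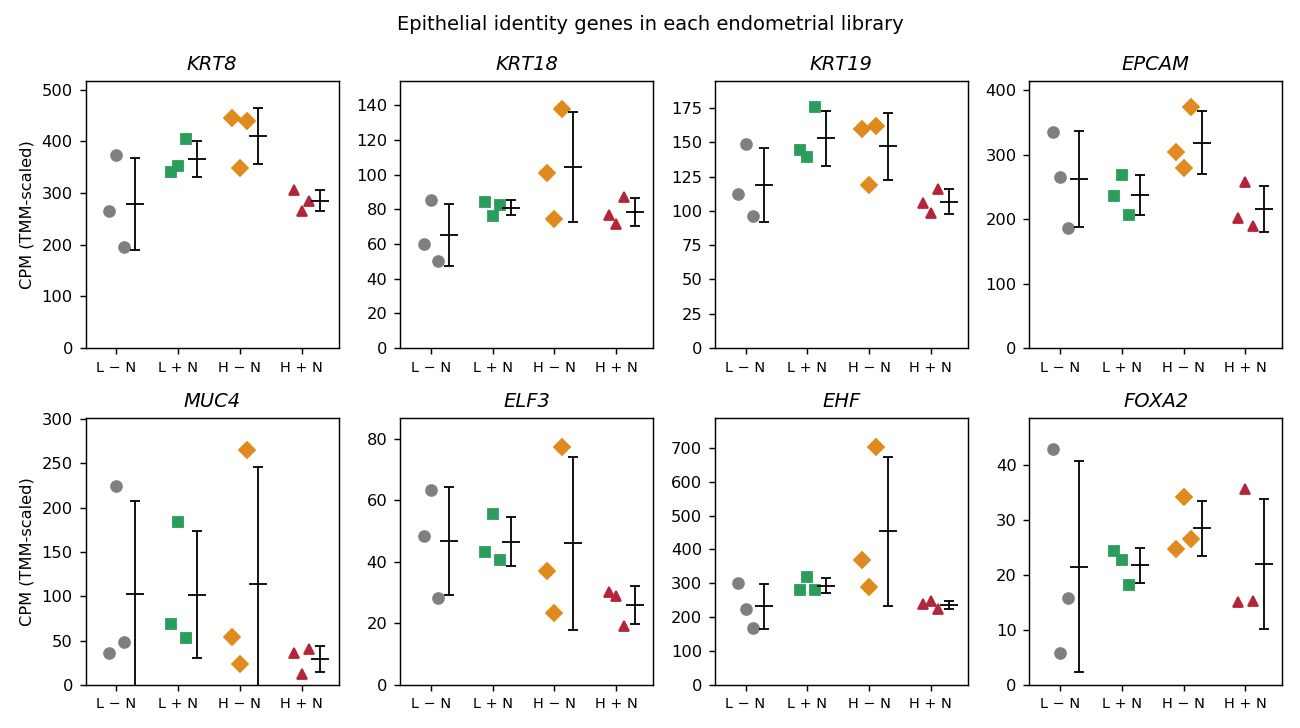
CPM of each of the 8 genes (linear axes from 0) in the 12 libraries, by diet group; symbols are single sows, and the black bars beside them the mean ± SD of 3 sows, cut at 0 where the SD exceeds the mean. MUC4 shows 1 high sow in each of L − N, L + N and H − N, and KRT8, KRT19 and EHF show H + N below H − N and L + N.

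None of the 8 genes passed the thresholds of differential expression in any comparison of the diets by the edgeR quasi-likelihood test (adjusted p under 0.05 and an absolute log2 fold change above 1). Among all 15351 genes tested, 3.58% passed them in H + N against L − N, 2.91% in H − N against L − N and 3.99% in L + N against L − N. In the test of any difference between the 4 groups, 0 of 8 had an adjusted p under 0.05 by edgeR, where 6.96% of all genes did, and 3 had an unadjusted p under 0.05 (KRT8, KRT19 and EHF), where 27.3% of all genes did. DESeq2 gave 1 of 8 (EHF, adjusted p = 0.0195), beside 21.9% of all genes.

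Under the high-fiber diet without NCG, EHF, KRT18 and KRT8 had the larger differences from L − N. EHF was 454 ± 220 CPM (SD, n = 3) in H − N and 232 ± 66.4 CPM in L − N, a log2 fold change of 0.97 (SE 0.29, 95% interval 0.33 to 1.61, adjusted p = 0.0768 by edgeR). Without the third H − N sow the value was 0.50 (adjusted p = 0.198), and without the first L − N sow it was 1.20 and passed the thresholds (adjusted p = 0.0304). The size of this difference depended on single sows that stood apart. KRT18 differed by 0.68 (SE 0.23, adjusted p = 0.0982 by edgeR) and by 0.43 without the third H − N sow. KRT8 differed by 0.56 (SE 0.20, adjusted p = 0.124 by edgeR), and by 0.36 without the third L − N sow. These 3 genes had an unadjusted p under 0.05, as did 11.3% of all genes in this direction. DESeq2 put KRT18 (adjusted p = 0.0458) and EHF (adjusted p = 0.0187) under 0.05, beside 13.6% of all genes, and neither exceeded the fold threshold. For 0 of the 8 genes were the H − N sows all above the L − N sows (12.8% of all genes). In all, 7 of 8 had a log2 fold change above 0 (53.5% of all genes), with a median of 0.35 beside 0.03 over all genes. The remaining one, ELF3, was at -0.03 (SE 0.40), and it turned positive without any one of 4 of the 6 sows compared, reaching 0.29 without the second H − N sow. MUC4 at 0.15 (SE 0.90) turned to -1.40 without the third H − N sow, and FOXA2 at 0.40 (SE 0.56) to -0.05 without the second L − N sow.

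When NCG was added to the high-fiber diet, all 8 genes had values below H − N. No gene of the whole table passed the adjusted threshold for H + N against H − N by edgeR, and DESeq2 put 0 of the 8 under it, so the values are given with unadjusted p for description. KRT8 had a log2 fold change of -0.52 (SE 0.20), KRT19 of -0.46 (SE 0.18), EPCAM of -0.56 (SE 0.21) and EHF of -0.94 (SE 0.29). For these 4 genes the unadjusted p was under 0.05 (3.32% of all genes in this direction) and the H + N sows were all below the H − N sows (5.13% of all genes). Their adjusted p by edgeR was 0.474 for EHF and 0.522 to 0.539 for the others. The value of EHF was -0.48 without the third H − N sow, while KRT8 ranged from -0.63 to -0.46 and KRT19 from -0.59 to -0.39 over the 12 libraries left out in turn. KRT18 was at -0.41 (SE 0.22) and at -0.16 without the third H − N sow. MUC4 was at -1.96 (SE 0.94) and at -0.41 without that sow, ELF3 at -0.82 (SE 0.40) and at -0.22 without it. FOXA2 was at -0.37 (SE 0.56), at -0.91 without the second and at -0.16 without the third H + N sow. A log2 fold change below 0 was found in 49% of all genes, and the median was -0.54 over the 8 genes and 0.01 over all genes. In whole tissue, here and in the other comparisons, a smaller number of epithelial cells and less RNA of these genes in each cell cannot be told apart.

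H + N against L + N compares the fiber levels in the presence of NCG. Here too no gene of the table passed the adjusted threshold by edgeR. KRT8 (-0.36, SE 0.20), KRT19 (-0.52, SE 0.18), MUC4 (-1.80, SE 0.94), ELF3 (-0.84, SE 0.40) and EHF (-0.31, SE 0.29) had all H + N sows below all L + N sows, which was so for 5.09% of all genes. KRT19 alone had an unadjusted p under 0.05 (1.67% of all genes in this direction, adjusted p = 0.91 by edgeR). MUC4 was at -1.06 without the second L + N sow. L + N against L − N compares NCG on the low-fiber diet. KRT8 (0.39, SE 0.20, 95% interval -0.05 to 0.84), KRT19 (0.36, SE 0.18), EHF (0.34, SE 0.29) and KRT18 (0.31, SE 0.22) were above 0, EPCAM was at -0.14 (SE 0.21), and MUC4, ELF3 and FOXA2 were at -0.01, -0.01 and 0.02. None of the 8 had an unadjusted p under 0.05, and the groups overlapped for all of them. H + N compared with L − N, the contrast of both changes together, gave values close to 0 for KRT8 (0.03, SE 0.20), EHF (0.03, SE 0.29) and FOXA2 (0.04, SE 0.56). Their 95% intervals were -0.41 to 0.48, -0.61 to 0.66 and -1.19 to 1.26, so a change of 2-fold lies outside the first 2 and within the last. ELF3 (-0.85, SE 0.40, adjusted p = 0.198 by edgeR) and MUC4 (-1.81, SE 0.94, adjusted p = 0.238 by edgeR) were lower. The MUC4 value was -0.53 without the second L − N sow, and the ELF3 value -0.56. These comparisons share the L − N libraries.

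**Figure D2:**
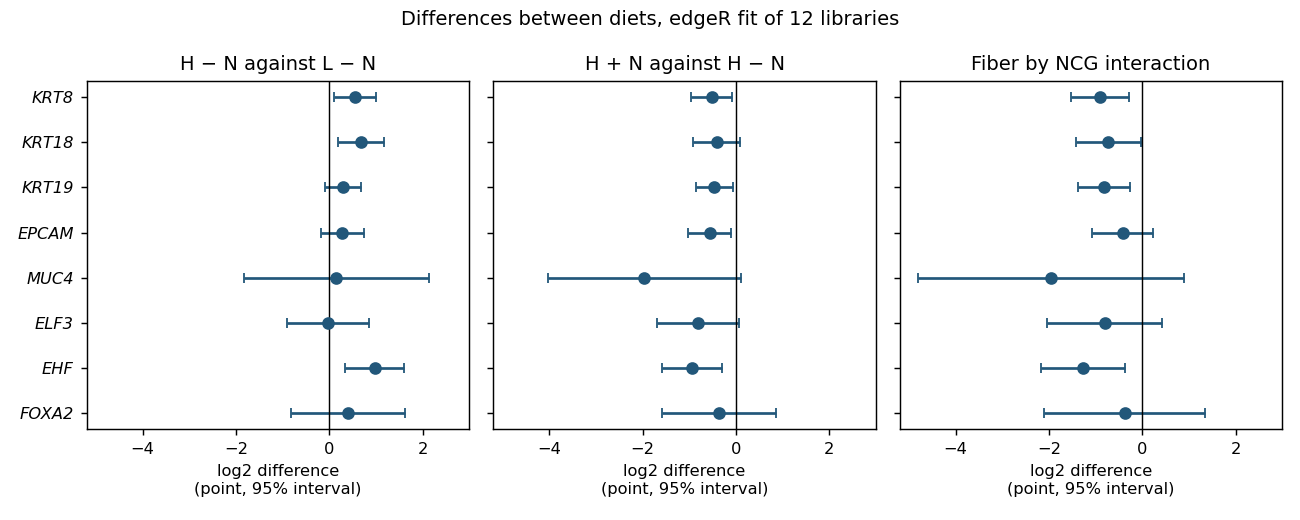
Log2 differences of the 8 genes with 95% intervals (edgeR, 12 libraries) for H − N against L − N, H + N against H − N, and the interaction of fiber and NCG. All 8 points lie below 0 in the second and the third panel, and the intervals of MUC4 and FOXA2 are the widest.

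The fiber by NCG interaction asks whether the change with NCG was another one on the high-fiber diet than on the low-fiber diet. It was below 0 for 8 of 8 genes (50.6% of all genes), with a median of -0.81 beside -0.01 over all genes, and no gene of the table passed the adjusted threshold by edgeR. KRT8 had an interaction of -0.91 (SE 0.29, adjusted p = 0.279 by edgeR), KRT19 of -0.82 (SE 0.25, adjusted p = 0.275), EHF of -1.28 (SE 0.41, adjusted p = 0.287) and KRT18 of -0.73 (SE 0.32, adjusted p = 0.373). These 4 had an unadjusted p under 0.05, as 5.33% of all genes did in this direction. The estimate shares the H − N and L − N libraries with the comparisons above and is not a separate observation. For KRT8 and KRT19 it moved between -1.19 and -0.72 and between -1.02 and -0.69 when single libraries were left out, and for EHF it was -0.82 without the third H − N sow. FOXA2 (-0.38, SE 0.79) turned to 0.07 without the second L − N sow, and MUC4 (-1.95, SE 1.30) was at -0.40 without the third H − N sow.

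Taken over both levels of the other factor, 0 of 8 genes passed the thresholds for HF against LF (0.0261% of all genes) and for NCG (1.8%). The HF difference of KRT18 was 0.32 (SE 0.16, adjusted p = 0.299 by edgeR), and 0.19 without the third H − N sow. All 8 values for NCG were below 0 (53.1% of all genes), but those of KRT8, KRT18, KRT19 and FOXA2 turned positive without single sows (up to 0.07, 0.08, 0.04 and 0.32). EPCAM, at 227 CPM with NCG and 291 CPM without, fell below an unadjusted p of 0.05 with a log2 fold change of -0.35 (SE 0.15, adjusted p = 0.178 by edgeR), beside 10.4% of all genes in this direction.

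Sows on the same diet differed to a very different extent from gene to gene. The SD of log2 CPM within groups was 0.23 for KRT19, 0.27 for KRT8, 0.28 for EPCAM, 0.31 for KRT18 and 0.40 for EHF, where the median of all genes was 0.28. It was 0.57 for ELF3, 0.82 for FOXA2 and 1.32 for MUC4, which exceeds 81.8%, 92.6% and 98.5% of the genes tested. MUC4 ranged from 12.3 to 265 CPM, 21.6-fold, and KRT19 from 96.3 to 176 CPM, 1.83-fold. The 3 keratins and EPCAM lay near the median of all genes, and the apical mucin was among the most variable. With this spread the 95% intervals of MUC4 and FOXA2 between 2 diets reached more than 1 log2 unit to either side of the estimate, so a 2-fold difference of these genes was not detectable.

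**Figure D3:**
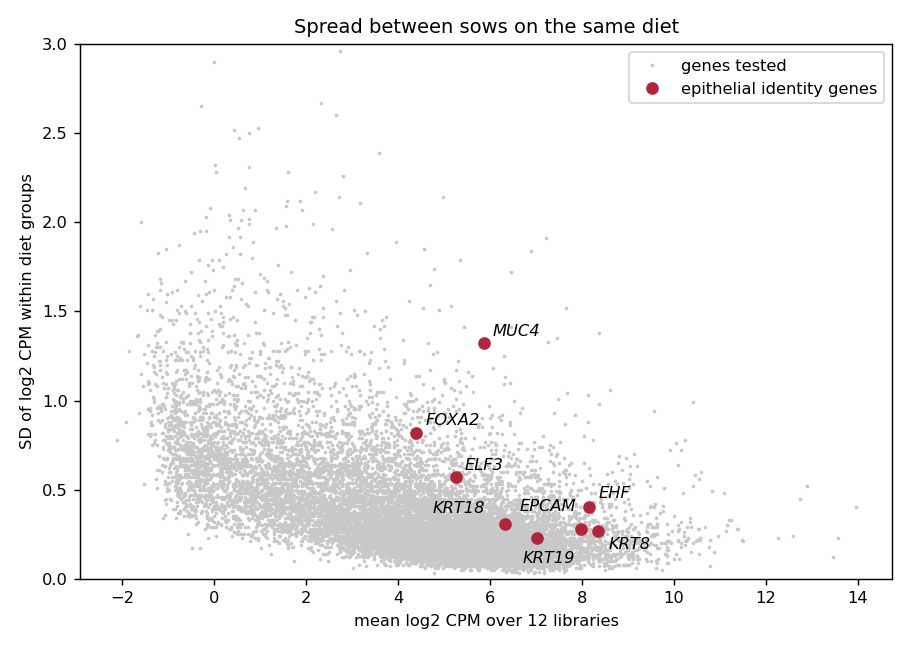
SD of log2 CPM within diet groups against mean log2 CPM for the genes tested (grey, the axis ends at an SD of 3) and the 8 epithelial identity genes (red). MUC4 (1.32) and FOXA2 (0.82) stand high for their level, and the 3 keratins and EPCAM (0.23 to 0.31) lie within the bulk of genes.

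The 8 genes did not vary as one. Over the 12 libraries, 28 pairs were compared by permutation tests, with p adjusted over them. Of the 21 pairs without MUC4, 5 had an adjusted p under 0.05 for Pearson's r. KRT8 and KRT19 were the closest pair, although on different chromosomes, with r = 0.90 and rho = 0.92 (adjusted permutation p = 0.00168 and 0.00308), r = 0.91 without the 2 libraries farthest from the median of KRT8, and r = 0.91 for the deviations from group means. KRT8 and KRT18 had r = 0.84 and rho = 0.76 (adjusted permutation p = 0.00532 and 0.0442, r = 0.67 without the 2 farthest), and KRT18 and KRT19 r = 0.71 and rho = 0.74 (adjusted permutation p = 0.0286 and 0.0458, r = 0.61). EPCAM went with EHF (r = 0.80, rho = 0.87, adjusted permutation p = 0.00532 and 0.0063, r = 0.63 without the 2 farthest). KRT18 and EHF had r = 0.79 but rho = 0.30, and r = 0.09 without the 2 farthest, so that this relation rests on those libraries. For MUC4, whose libraries fall into 3 high and 9 low ones, no value over all libraries is given for its pairs with the other 7, and within the 9 its r was 0.40 with ELF3 and -0.49 with FOXA2. The 6 pairs of FOXA2 without MUC4 had r from -0.18 to 0.46, and the 15 pairs without either gene had r from 0.36 to 0.90. FOXA2 went furthest with EPCAM (r = 0.46, rho = 0.66, adjusted permutation p = 0.193 and 0.0858, r = 0.73 without the 2 libraries farthest in FOXA2) and EHF (r = 0.40, rho = 0.64, adjusted permutation p = 0.227 and 0.0977).

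FOXA2 varied with the genes of ciliated epithelium. The cells with motile cilia of the uterine lining and glands carry FOXJ1, the regulator of motile cilia, and axonemal genes such as CCDC39 and DNAH9. The summed CPM of 12 such genes was lowest (86.0 CPM) in the sow with the lowest FOXA2 and was 293, 179, 287, 251, 217, 280, 301, 442, 184, 485 and 219 CPM in the remaining libraries, in the order L − N 1 and 3, L + N, H − N and H + N. Over the 12 libraries it had r = 0.89 and rho = 0.91 with FOXA2 (adjusted permutation p = 0.00909 and 0.0044 over 88 relations of the 8 genes with 11 gene lists), r = 0.86 without the 2 libraries farthest in FOXA2, and r = 0.90 for deviations from group means. The deviations of FOXA2 also went with those of endothelium (r = 0.90), smooth muscle (0.78) and blood genes (0.73). Over the 12 libraries the r of FOXA2 with these lists was 0.32, 0.24 and 0.20. For the remaining lists the r of deviations was -0.27 to 0.23. FOXJ1 itself was at 24.2 CPM in the sow of lowest FOXA2 and at 101 CPM in that of highest FOXA2. No such relation with the ciliated list was found for the keratins (r = -0.07 to 0.24). EHF (r = 0.57, rho = 0.63) and EPCAM (r = 0.45, rho = 0.62) lay between. Their adjusted permutation p was 0.294 and 0.387 for r, and 0.333 for both rho. ELF3 and MUC4 had rho = 0.03 and -0.24 with this list. The sum of the list of glandular or FOXA2-linked genes, 13 of them tested, had r = 0.03 with FOXA2. That list also holds CDH1, which is in the surface and adhesion list too, so its sum is not one of glandular genes alone. EHF and EPCAM went with the summed level of other epithelial surface and adhesion genes (EHF r = 0.97, rho = 0.94, r = 0.86 without the 2 farthest, and EPCAM r = 0.85, rho = 0.93, r = 0.75). In all, 5 of the 88 relations had an adjusted p under 0.05 for r. The remaining ones were of KRT8, with other keratins (r = 0.81, rho = 0.67) and with blood genes (r = -0.79, rho = -0.59). Their adjusted permutation p was 0.0396 for both r, and 0.298 and 0.333 for rho. These relations were looked for after the values were seen.

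**Figure D4:**
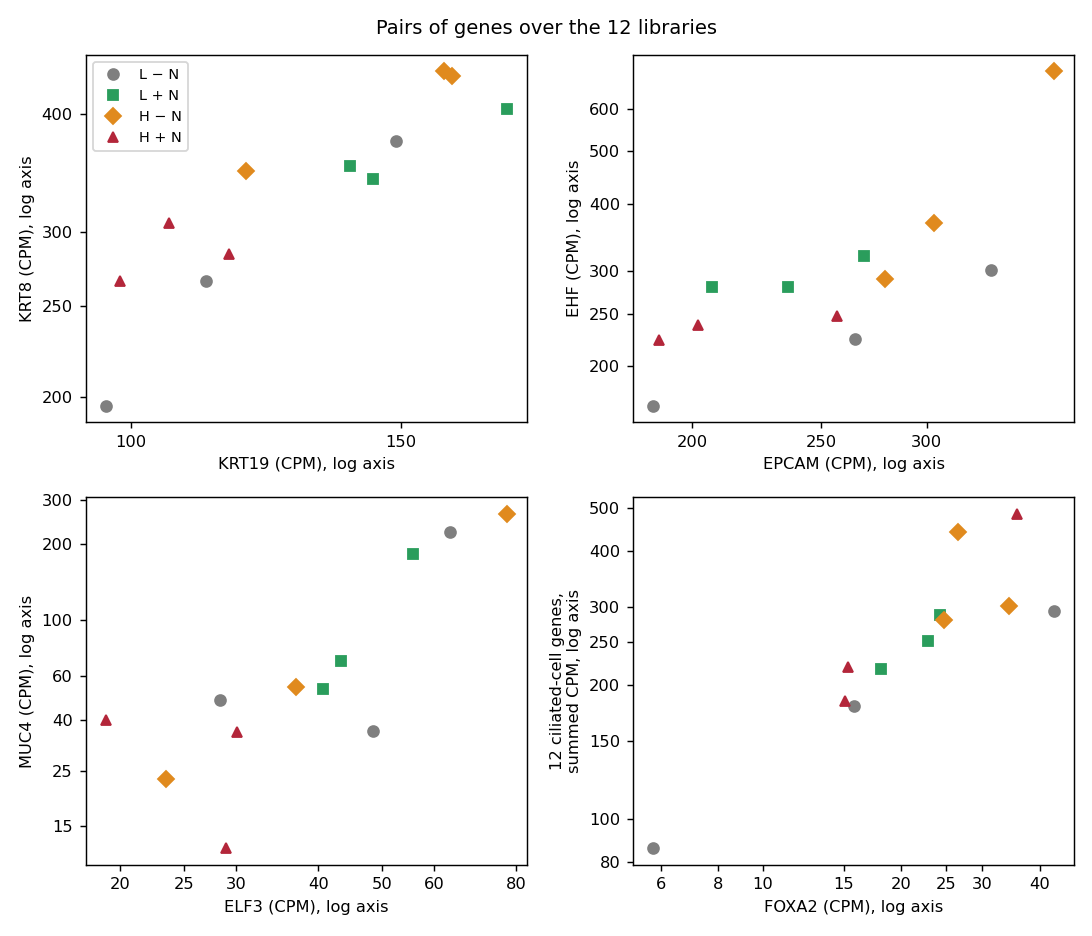
Pairs of genes in the 12 libraries (CPM, log axes): KRT8 against KRT19, EHF against EPCAM, MUC4 against ELF3, and the summed CPM of 12 ciliated-cell genes against FOXA2, with symbols for the diet groups. KRT8 with KRT19 (r = 0.90) and FOXA2 with the ciliated genes (r = 0.89) follow a line through all groups, whereas MUC4 forms a cluster of 3 high and one of 9 low libraries.

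The genes most like each of the 8 over the 12 libraries were found by Pearson's r of log2 CPM and are a description without a test. KRT8 was followed by EPS8L2 (0.92), KLF5 (0.91), a zinc finger factor of epithelia, and ITPR3 (0.90), a calcium release channel. KRT18 was followed by SLC9A3R1 (0.98), a scaffold of the apical membrane, EPS8L2 (0.95) and SKAP1 (0.92), and KRT19 by RHOV (0.88), PPP1R14D (0.87) and KCTD17 (0.86). EPCAM had FBXO34 (0.94), CRB3 (0.93), a polarity protein of the apical membrane, and C8H4orf19 (0.92). MUC4 had TRPV6 (0.95), an epithelial calcium channel, MST1R (0.94), a receptor kinase, and MUC20 (0.94), another membrane mucin, and in the 9 sows of low MUC4 these values were 0.83, 0.84 and 0.85. ELF3 had the integrin subunits ITGA2 (0.94) and ITGB6 (0.91) and the chloride channel CFTR (0.90). EHF had SLC34A2 (0.96), a phosphate transporter of apical membranes, SLC44A4 (0.94) and GPR39 (0.93). FOXA2 had MORN3 (0.96), ZC2HC1C (0.96) and C5H22orf23 (0.95).

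Because filaments pair a type II with a type I keratin, the FPKM of KRT8 was set against that of KRT18 and KRT19 together. The ratio was 1.42 ± 0.139 (SD, n = 6) in HF and 1.37 ± 0.0943 (n = 6) in LF sows (exact permutation test, two-sided, p = 0.465), and 1.39 with NCG against 1.40 without (exact permutation p = 0.881). Within the type I keratins the balance differed more. The ratio of KRT18 to KRT19 was 0.589, 0.629 and 0.575 in L − N, 0.644, 0.607 and 0.516 in L + N, 0.696, 0.690 and 0.939 in H − N, and 0.799, 0.804 and 0.830 in H + N. Every HF sow was above every LF sow, with a mean log2 difference of 0.41, which was 0.36 without NCG and 0.47 with it. The ratio of ELF3 to EHF, the 2 ETS factors, was 0.683, 1.20 and 0.713 in L − N, 0.655, 0.739 and 0.618 in L + N, 0.427, 0.344 and 0.467 in H − N, and 0.538, 0.496 and 0.360 in H + N. Every HF sow was below every LF sow, with a mean log2 difference of -0.79, which was -1.03 without NCG and -0.55 with it. These 2 ratios were the ones without overlap among 56 tests, chosen after the values were seen. For both, the exact permutation test gave p = 0.00216, the smallest that 6 against 6 sows allow, and an adjusted p of 0.0606. Within NCG levels the smallest p of 3 against 3 sows is 0.1, which both reached. Among the ratios of all pairs of genes tested, 0.944% were without overlap between HF and LF.

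**Figure D5:**
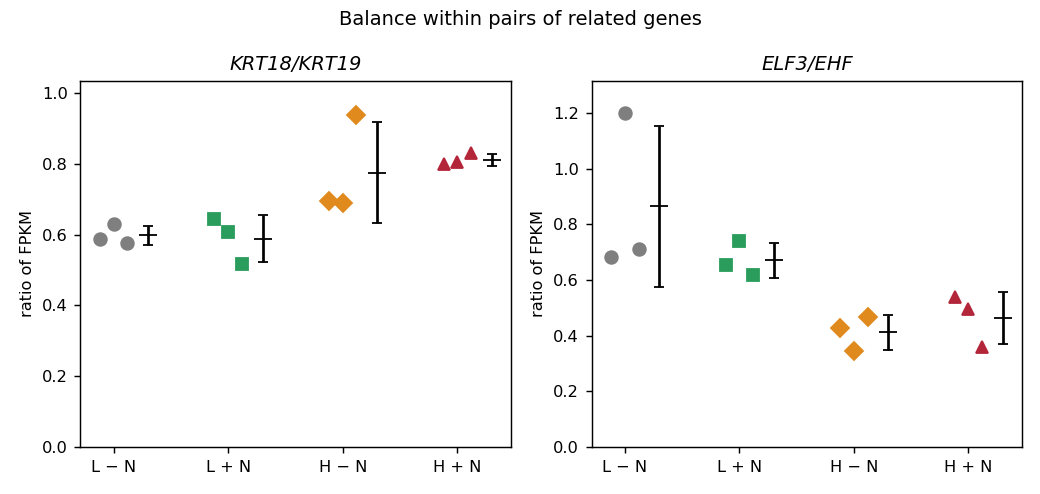
Ratio of FPKM of KRT18 to KRT19 and of ELF3 to EHF (axes from 0) in each sow, with mean ± SD of 3 sows beside the symbols. The KRT18 to KRT19 ratio is 0.516 to 0.644 on the LF diets and 0.690 to 0.939 on the HF diets, and the ELF3 to EHF ratio 0.618 to 1.20 against 0.344 to 0.538.

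Other epithelial genes give the surroundings of these results. Of 30 further surface and adhesion genes, 27 were tested. Of these, 24 were above 0 in H − N against L − N with a median log2 fold change of 0.54 (0.03 over all genes), and 1 passed both thresholds (2.91% of all genes). This was CDCP1, a transmembrane glycoprotein (56.7 ± 14.2 against 27.2 ± 6.09 CPM, log2 fold change 1.06, SE 0.23, adjusted p = 0.0298 by edgeR). CDH1, the E-cadherin of adherens junctions, was at 418 to 468 CPM in L − N and 612 to 1038 CPM in H − N and rose by 0.83 (SE 0.17, adjusted p = 0.0279 by edgeR). MAL2, RAB25 and CGN also had an adjusted p under 0.05 in this comparison, which makes 5 of 27 by this looser rule (5.27% of all genes). CDH1 and CDCP1 each kept an adjusted p under 0.05 in 8 of 12 fits with a library left out. Only 1 of 27 was above 0 in H + N against H − N, with a median of -0.49 (0.01 over all genes), and 0 passed. CDH1 was at 429 to 515 CPM in H + N, a log2 fold change of -0.75 (SE 0.17, adjusted p = 0.451 by edgeR). The count in H − N against L − N was 0 of 27 when the first or the third H − N or the third L − N sow was left out, and 4 without the first L − N sow.

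Of 26 further regulators of epithelial transcription and splicing, 24 were tested. Both thresholds were passed by 4 of 24 in H − N against L − N (2.91% of all genes) and by 5 of 24 in H + N against L − N (3.58% of all genes). SPDEF, a factor of secretory cells, rose from 4.65 ± 3.50 CPM in L − N to 19.8 ± 6.36 CPM in H − N (log2 fold change 2.09, SE 0.46, adjusted p = 0.0317 by edgeR). GRHL2, a grainyhead factor that maintains epithelial junctions, rose by 1.07 (SE 0.21, adjusted p = 0.0249 by edgeR). GRHL1 fell by 1.92 (SE 0.50, adjusted p = 0.0494). In this comparison the adjusted p stayed under 0.05 in 6 of 12 fits with a library left out for SPDEF, in 7 for GRHL2 and in 1 for GRHL1. Among the 5 calls in H + N against L − N, the estrogen receptor ESR1 rose from 450 ± 63.1 to 1069 ± 208 CPM (log2 fold change 1.25, SE 0.22, adjusted p = 0.0161 by edgeR), the progesterone receptor PGR by 1.17 (SE 0.32) and ELF5, at no more than 2.94 CPM, by 1.59 (SE 0.42), and GRHL1 fell by 1.79 (SE 0.49). In H + N against L − N, ESR1 kept an adjusted p under 0.05 in 10 of 12 fits with a library left out, ELF5 in 4, GRHL1 in 2 and PGR in 1. Both receptors are also found in the stroma. ESR1 was also above L − N in L + N (0.96, SE 0.22, adjusted p = 0.0217 by edgeR) and in H − N (0.85, SE 0.22, adjusted p = 0.0473), under the fold threshold. H + N differed from H − N by 0.40 and from L + N by 0.29 (adjusted p = 0.622 and 0.916 by edgeR). The 4 calls in H − N against L − N became 0 without the first H − N, the second L − N or the third L − N sow, and 9 without the first L − N sow. The 5 calls in H + N against L − N became 0 without the first H + N or the third L − N sow and 8 without the first L − N sow. For this and the other lists, the share of all genes called in the fits with a library left out is not given. A change in calls between these fits may thus not be particular to a list.

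Of 20 glandular or FOXA2-linked genes, 13 were tested, and 2 of 13 passed both thresholds in H − N against L − N (2.91% of all genes) and 2 of 13 in H + N against L − N (3.58%). ACP5, which encodes uteroferrin, the iron-binding phosphatase of pig uterine secretion, was at 350 ± 183 CPM in L − N and 78.6 ± 16.9 CPM in H − N, a fall of 2.15 on the log2 scale (SE 0.39, adjusted p = 0.0214 by edgeR), and it fell by 1.87 in H + N against L − N (SE 0.39, adjusted p = 0.0234). ACP5 also passed in L + N against L − N (-1.44, SE 0.38, adjusted p = 0.04 by edgeR), the 1 call of 13 there (3.99% of all genes). That adjusted p stayed under 0.05 in 6 of 12 fits with a library left out. For HF against LF it did not pass (-1.29, SE 0.27, adjusted p = 0.0678 by edgeR). In the L − N sows ACP5 was at 139, 469 and 441 CPM, beside 186, 690 and 692 CPM for CD163, 160, 326 and 381 CPM for CSF1R and 53.3, 222 and 185 CPM for CD68. These 3 macrophage genes were also lower in H − N, and their part in the ACP5 difference was not tested. MSX1 rose by 1.40 in H − N against L − N (SE 0.31, adjusted p = 0.0327 by edgeR). WFDC2, a secreted protease inhibitor, was at 121 ± 145 CPM in L − N and 12.8 ± 3.66 CPM in H + N (log2 fold change -3.25, SE 0.80, adjusted p = 0.0344 by edgeR). The L − N sows were at 20.9, 288 and 55.7 CPM, and the value was -1.58 without the second. RBP4, the retinol carrier, fell with NCG by 1.59 (SE 0.43, adjusted p = 0.0488 by edgeR), the 1 call of 13 for NCG (1.8% of all genes). PAEP did not exceed 3 counts in any library. The 2 calls in H − N against L − N became 0 without any one H − N sow or without the second or the third L − N sow, and 4 without the first L − N sow. The 2 calls in H + N against L − N became 0 without the first or the third H + N sow or the second or the third L − N sow, and 4 without the first L − N or the third H − N sow. RBP4 kept an adjusted p under 0.05 in 2 of 12 such fits. Of the 12 ciliated genes, 1 passed both thresholds for NCG (1.8% of all genes). This was CCDC39, at no more than 5.41 CPM in any library, which rose by 1.83 (SE 0.34, adjusted p = 0.0115 by edgeR). Its adjusted p stayed under 0.05 in 12 of 12 fits with a library left out. The median for NCG over the 12 genes was 0.20 (-0.03 over all genes), and FOXJ1 was at -0.11 (SE 0.35).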

How the data were processed

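RNA was measured by paired-end poly(A) sequencing in 12 endometrium samples, 3 per diet, grouped by their deposited titles. The labels name no batch. The authors deposited a read count and an FPKM value per gene and sample. The submitters' processing notes name fastp 0.22.0, HISAT2 2.1.0, HTSeq 0.9.1 and Sscrofa11.1, and the counting strand is not given in the sources used here. The deposited FPKM values equal counts divided by exon length and library total within 1.9e-05 percent.

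The counts were filtered with filterByExpr of edgeR 4.0.16 in R 4.3.3 (15351 genes kept) and tested with TMM scaling and a quasi-likelihood fit of one mean per diet to all 12 libraries. DESeq2 1.42.0 was the alternative. p-values were adjusted by Benjamini-Hochberg over all genes tested. The thresholds of differential expression were an absolute log2 fold change above 1 with an adjusted p under 0.05. SE is the absolute log2 fold change divided by the root of F. HF and NCG effects are means over the other factor, and the interaction is the NCG effect on the HF diet minus that on the LF diet. Log2 CPM used a prior count of 2. Correlations used 100000 permutations, and ratios of FPKM exact permutation tests, two-sided, in Python 3.11.15 with scipy 1.17.1. The scripts were tested on simulated data.

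All 8 genes found in the table passed the filter. Named beside them are the 3 genes of highest Pearson r with each (mean of at least 1 CPM, provisional LOC names left out), the members of each list that passed in a comparison, up to 4 by fold change, and the 2 most abundant ones. One gene that this rule names is not reported here. MAL2, RAB25 and CGN were named after their values were seen. The 8 genes and all lists were chosen with earlier results of these data known, and the ratios and the relations with lists after their values were seen. The labels do not say more of the replicates than their number, so p-values measure the spread between these samples. Between samples with the same number in different groups the correlation of deviations from the group means was -0.322 to 0.283 (median -0.0413, above 0.1 in 3 of 18 pairs), so the numbers do not pair sows. Alternatives were RLE scaling, no filter, DESeq2, a replicate block and each library left out. Promoter and protein sequences of the genes were not analysed here.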

Additional observations from a re-analysis of the deposited data

How the results depend on the processing

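Under each of 16 alternatives (RLE scaling, no filter, DESeq2, the replicate block and 12 left-out libraries), 978 of 1024 values of the log2 fold changes (8 genes in 8 comparisons) kept their direction. The number of the 8 genes past the thresholds in H − N against L − N was 0 to 1 over the left-out libraries (EHF without the first L − N sow), and in the test of any difference it was 1 with DESeq2 (EHF); it was 0 for the other comparisons under all 16. The cause was not tested. Over the left-out libraries, in H − N against L − N, MUC4 ranged from -1.40 to 1.44, ELF3 from -0.63 to 0.29 and FOXA2 from -0.05 to 1.40, and the FOXA2 interaction from -1.38 to 0.07. In H + N against L − N, KRT8 ranged from -0.16 to 0.31, KRT19 from -0.29 to 0.03, EHF from -0.15 to 0.26 and FOXA2 from -0.52 to 1.04, and in H + N against L + N FOXA2 from -0.54 to 0.23. In L + N against L − N, EPCAM ranged from -0.34 to 0.07, MUC4 from -0.74 to 1.27, ELF3 from -0.26 to 0.28 and FOXA2 from -0.44 to 1.01. For HF, EPCAM ranged from -0.02 to 0.18 and FOXA2 from -0.08 to 0.71, and for NCG, KRT8 from -0.16 to 0.07, KRT18 from -0.15 to 0.08, KRT19 from -0.12 to 0.04 and FOXA2 from -0.45 to 0.32. With the replicate block, ELF3 in H − N against L − N was at 0.00 and MUC4 in L + N against L − N at 0.10. The replicate numbers link no sows, and with the block 0 of the 8 genes passed the thresholds in any comparison.

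The choice of tool moved the counts over all genes. DESeq2 called 988 genes in H + N against L − N (edgeR 549), 913 in H − N against L − N (446), 25 in H + N against H − N (0), 2 in H + N against L + N (0), 290 for HF (4) and 184 for the interaction (0), and 3365 against 1068 in the test of any difference. The regulators called in H − N against L − N were 7 by DESeq2 and 4 by edgeR. With 3 sows per diet the spread between sows, not the depth, limits the precision. The planned search of promoter motifs was not run.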

Other observations

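Among the other tissue markers of the L − N sows, several immune and stromal genes differed from the fiber and NCG groups. The macrophage genes CD68, CSF1R and CD163 were lower past both thresholds in H − N against L − N, 3 of 11 leukocyte genes beside 2.91% of all genes. Of 12 stromal genes THY1 and VIM were lower past both thresholds and 6 had a log2 fold change above 0, among them the collagens COL3A1 and COL1A1 (1.02, SE 0.39, for COL1A1), which did not pass. The stromal sum was 31691 to 36419 CPM in L − N and 36557 to 63280 CPM in H − N. In L + N against L − N, TAGLN and ACTA2, of 8 smooth muscle genes, were lower past both thresholds, beside 3.99% of all genes. The L − N sows were at 1918, 578 and 672 CPM for ACTA2 and at 1403, 590 and 560 CPM for TAGLN. ACTA2 kept an adjusted p under 0.05 in 7 of 12 fits with a library left out, and lost it without the first L − N sow. TAGLN kept it in 9 of 12, with log2 fold changes of -1.73 to -0.94. None of these immune, stromal and smooth muscle genes passed in H + N against H − N by edgeR. Over all alternatives the leukocyte count in H − N against L − N was 0 without any one of the H − N sows 1 and 3 and the L − N sows 2 and 3, and 6 without the first L − N sow. The share of all genes called in these fits is not given, so these changes may not be particular to leukocyte genes.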
